A study of Arabidopsis thaliana with 8 samples.

Results

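Class III peroxidases are secreted haem enzymes found in plants, and in Arabidopsis thaliana they form a large gene family numbered PER1 to PER73 in genome order. The genes described here are 60 of these 73 family loci, taken as a fixed list and found on the arrays by the locus name of their probe. All 60 had a probe, among 25665 loci with one. The family was chosen by measured values, namely because log2 differences of some of its genes were among the largest rises and falls between the groups compared here. The differences between those groups are therefore given as a description, and no p-value of a family gene is printed.

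With hydrogen peroxide as oxidant these enzymes turn phenolic compounds into radicals, and so join lignin units, the phenolic part of suberin and wall proteins such as extensins. They can also produce reactive oxygen in the wall, in the burst that follows the sensing of a microbe or in growing root hairs. Many family genes are expressed mainly in roots, and close copies often lie next to each other on the chromosome.

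Whole seedlings of the Columbia-0 ecotype, 2 weeks old, were compared between a 35S:WIN1 line (genotype field 35S:WIN1:NOS) and a control that the titles call vector control and the genotype field calls wild type. WIN1 is an AP2/ERF transcription factor gene known for cuticle formation, and the viral 35S promoter drives expression in most plant cells. Plants grew on MS agar with 1% sucrose at 23 degrees Celsius under 16 h of light and 8 h of dark. Each group had 4 samples, each a pool of several seedlings from a plate on a 1-colour Agilent array of its own. The labels do not say how many transgenic lines were used or whether the samples came from separate plates, so the spread between samples may be technical.

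A level is the log2 of the processed signal minus that array's 75th percentile, and levels of different genes are not comparable because each probe binds with its own strength. A gene was called higher or lower where limma's Benjamini-Hochberg adjusted p over 20441 genes was below 0.05. The 75th percentile of signal was 996.7 and 1269 on 35S:WIN1 replicates 1 and 2, dimmer than the 1790 to 2490 of the other arrays. All arrays of one group lay on one slide, and the effect of the slide and that of the genotype cannot be told apart. WIN1 itself was higher in 35S:WIN1, at 3.85 to 5.62 against -9.32 to -6.07 in the control, where it was well above background on 1 array. Because whole seedlings were measured, a change in the number of cells of a type and a change of RNA per cell cannot be told apart. On an alternative scale set by the median of added spike-in RNAs (8 probes), the difference of every gene with a value on all 8 arrays shifts by -1.64. That median varied within groups. Relative to the 75th percentile it was 2.77 to 4.38 on the 35S:WIN1 arrays and 1.55 to 2.78 on the control arrays. Directions here are relative to the 75th percentile, and on the spike-in scale each difference of such a gene between 0 and 1.64 turns below 0.

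Of the 60 genes, 56 were above background on enough arrays to be tested. PER14, PER36 and PER41 were not well above background on any array, and PER58 only on 1 of the 35S:WIN1 arrays and 2 of the control arrays. PER36 is known from the seed coat, where it acts in mucilage release. Of the 56, 10 were called higher and 10 lower, where 15.1% and 20.2% of all genes tested were called, and 36 were not called. In all, 35.7% of the tested genes of the family were called, against 35.3% of all genes, so the share called was near the background. On the spike-in scale 5 were called higher and 34 lower, or 8.93% and 60.7%, where 1.97% and 83.9% of all genes were so called. That scale adds to each array an offset that all genes share, while the fit treats genes as independent. Calls on it are therefore descriptions only.

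Large differences made up more of the family than of all genes, which the choice of the family by size can produce. At least 2-fold differences were called for 8 higher and 9 lower genes, where 7.73% and 7.47% of all genes were so called. Log2 differences beyond 2 in either direction were fitted for 12 of the 56 genes, or 21.4%, against 5.69% of all genes tested. The arrays did not overlap between groups for 9 of the 56 genes that were higher and 10 that were lower in 35S:WIN1. The shares over all genes were 15.4% and 20.3%, so by this measure the family was near the background. The median log2 difference of the family was 0.10, against -0.04 for all genes.

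**Figure D1:**
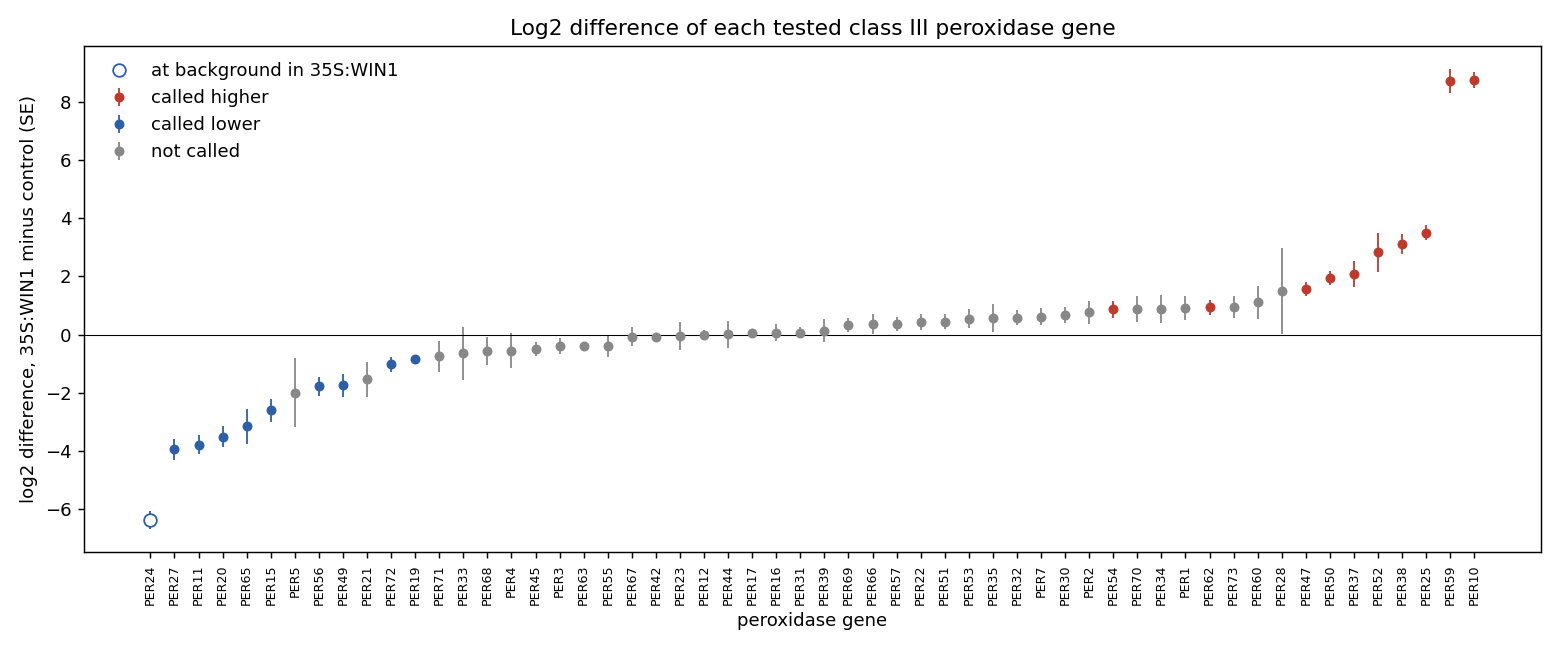
Log2 difference between 35S:WIN1 and control (vertical axis, points with SE) for each of the 56 tested peroxidase genes in rising order, coloured by call. PER10 and PER59 stand far above the other genes at 8.76 and 8.72, the open symbol of PER24, at background in 35S:WIN1, stands for a fall of at least 19.7-fold and not for its plotted height, and 32 of the 36 uncalled genes lie within 1 of zero.

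PER10 (AT1G49570) showed the largest fitted rise of the family. Its level was 6.003, 5.33, 5.56 and 4.83 on 35S:WIN1 replicates 1 to 4 and -3.83, -2.95, -3.45 and -3.08 on the control arrays. Every array of either group was well above background, so the 433-fold ratio is measured on both sides. The log2 difference was 8.76 (SE 0.28). It stood at rank 7 of the 20441 genes ordered by fitted rise.

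PER59 (AT5G19890) stood next to it, at rank 8. It was at 4.14, 3.83, 4.28 and 3.48 in 35S:WIN1 and at -4.52, -3.70, -5.12 and -5.79 in the control. The log2 difference of 8.72 (SE 0.42) is a ratio of 420-fold. For both genes every 35S:WIN1 array lay far above every control array. No developmental or biochemical role is assigned to either gene here.

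Among the genes with a known part in lignin, PER25 (AT2G41480), one of the peroxidases whose loss lowers stem lignin, was higher on all arrays. Levels were 1.06, 1.79, 0.92 and 0.48 in 35S:WIN1 against -2.46, -2.73, -2.14 and -2.42 in the control. The difference was 3.50 (SE 0.27), or 11.3-fold. PER52 (AT5G05340), which acts in lignification of stem fibres, was called higher too but varied widely within 35S:WIN1. It stood at -2.19, -3.07, -4.53 and -0.85, against -5.91, -5.33, -5.31 and -5.41 in the control. Its difference was 2.83 with an SE of 0.68, and without 35S:WIN1 replicates 1 and 2 the value was 2.80 and the call was lost. With normexp background correction it was 1.85.

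The neighbours PER37 and PER38 were both called higher, but on the spike-in scale PER37 stood at 0.45 and lost its call. PER37 (AT4G08770), whose overexpression is known to dwarf the plant, was at 0.48, -0.59, 1.80 and 1.04 in 35S:WIN1 and at -1.49, -0.98, -1.53 and -1.59 in the control. Its lowest 35S:WIN1 array, replicate 2, lay close to its highest control array. PER38 (AT4G08780) was at -1.43, -1.51, -1.07 and -2.26 against -5.30, -4.79, -4.68 and -3.96. The differences were 2.08 (SE 0.45) and 3.11 (SE 0.33).

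PER50 and PER47 were higher by smaller amounts. PER50 (AT4G37520) was at 3.62, 2.81, 3.43 and 3.30 against 1.46, 1.66, 1.57 and 0.70, a ratio of 3.83-fold. PER47 (AT4G33420) was at 1.18, 0.54, 0.27 and 1.04 against -1.10, -0.47, -1.11 and -0.60, a ratio of 2.98-fold. The groups did not overlap for either gene. On the scale of the spike-in RNAs both calls were lost, with PER50 at 0.30 and PER47 at -0.06.

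PER62 and PER54 were called higher with the smallest differences, both below 0 on the spike-in scale. Their calls were borderline and were lost without any 1 of several arrays. PER62 (AT5G39580), known from defence and from root hair growth in the cold, was at 0.55, 0.42, 0.18 and 1.40 against -0.60, 0.01, -0.32 and -0.29. Its difference of 0.94 (SE 0.26) lost its call without 35S:WIN1 replicate 1 or control replicate 1, 3 or 4, at 0.97, 0.84, 0.93 and 0.94. PER54 (AT5G06730) was at -2.31, -3.17, -3.18 and -2.91 against -4.07, -3.96, -3.94 and -3.05, and its groups overlapped through control replicate 4. Its difference of 0.86 (SE 0.28) kept its call without control replicate 4 and lost it without any other single array, at 0.67 to 0.96.

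**Figure D2:**
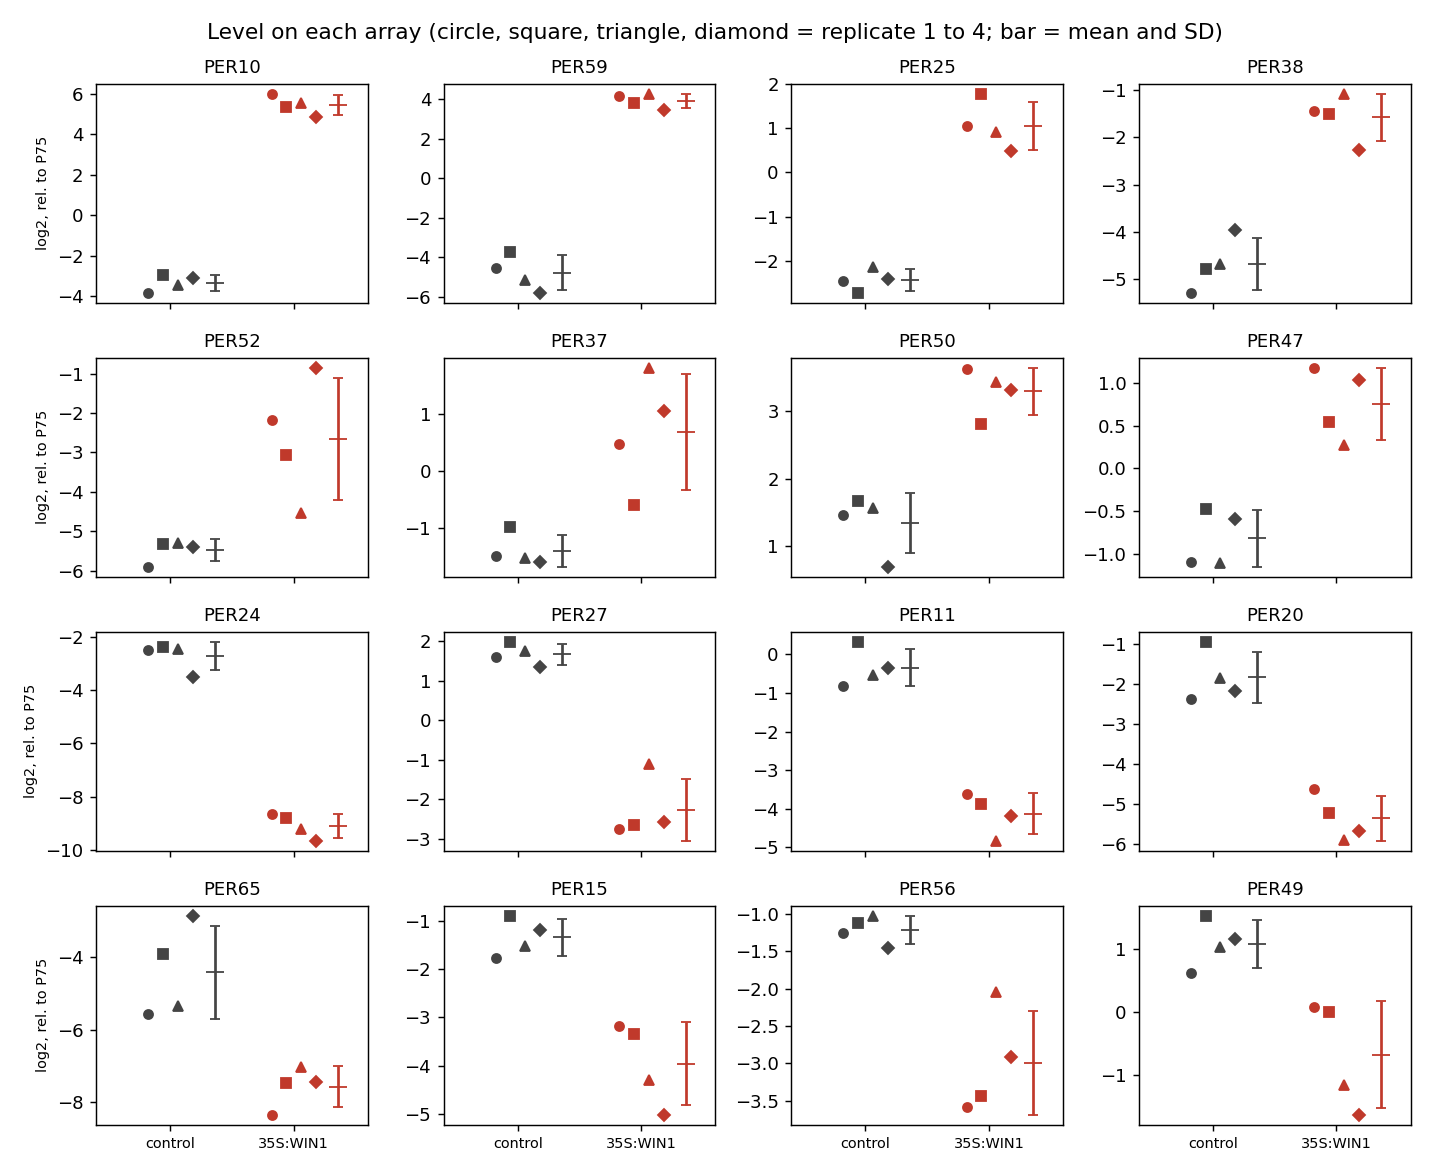
Level on each array (log2 relative to the array's 75th percentile, P75) for 16 called genes, with control in grey and 35S:WIN1 in red and the mean and SD beside them. The groups do not overlap in any of the 16 panels, and the gap is widest for PER10 and PER59. PER52, PER37, PER27, PER49, PER15, PER56 and PER25 are among the genes that spread more in 35S:WIN1 than in the control.

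Of the genes called lower, PER24 (AT2G39040) was not well above background on any array of 35S:WIN1, where its measured levels were -8.67, -8.81, -9.22 and -9.66. In the control it was above background on all arrays, at -2.49, -2.41, -2.47 and -3.51. It was therefore at least 19.7-fold lower, against the lowest signal that counts as well above background on each array. With normexp background correction, which raises dim signals, its log2 difference was -1.70 and was still called.

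PER27, PER11 and PER20 were lower by more than 10-fold and above background on all 8 arrays. PER27 (AT3G01190) was at -2.76, -2.66, -1.10 and -2.58 in 35S:WIN1 against 1.59, 1.99, 1.75 and 1.35 in the control, a ratio of 15.4-fold. PER11 (AT1G68850) was at -3.61, -3.87, -4.83 and -4.19 against -0.81, 0.33, -0.54 and -0.34, a ratio of 13.8-fold. PER20 (AT2G35380) was at -4.62, -5.21, -5.90 and -5.66 against -2.37, -0.95, -1.85 and -2.19, a ratio of 11.4-fold. In each of the 3 genes the highest 35S:WIN1 array lay below the lowest control array. The SE of their log2 differences of -3.94, -3.78 and -3.51 ran from 0.32 to 0.37. With normexp the difference of PER20 was -1.64.

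PER15, PER56 and PER49 formed a middle group. PER15 (AT2G18150) was at -3.17, -3.34, -4.30 and -5.02 against -1.77, -0.90, -1.52 and -1.20, and PER56 (AT5G15180) at -3.59, -3.44, -2.05 and -2.91 against -1.25, -1.12, -1.02 and -1.46. PER49 (AT4G36430) was at 0.09, -0.00078, -1.15 and -1.62 against 0.61, 1.53, 1.02 and 1.15. Their log2 differences were -2.61, -1.79 and -1.75 (SE 0.41, 0.32 and 0.40). With normexp that of PER15 was -1.75. PER15 and PER49 were lower on 35S:WIN1 replicates 3 and 4 than on the dimmer replicates 1 and 2, while for PER56 replicates 1 and 2 were the lower ones.

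PER65 (AT5G47000) was above background on all control arrays but on only 1 of the 35S:WIN1 arrays. It stood at -8.35, -7.47, -7.02 and -7.45 against -5.56, -3.93, -5.35 and -2.86, with a log2 difference of -3.15 (SE 0.60), or 5.53-fold lower once values under an array's detection floor were set to it. Under normexp background correction the difference was -0.46 and was not called. PER19 (AT2G34060) had the smallest fall called, at -1.69, -1.31, -1.53 and -1.38 against -0.45, -0.54, -0.69 and -0.81. Its difference was -0.85 with an SE of only 0.13, since the arrays of each group lay close together.

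Genes of the Casparian strip, the lignin seal around the root endodermis, gave 1 call among the 3 listed here. PER72 (AT5G66390) was called lower, at -0.37, -0.47, -0.10 and -1.25 against 0.38, 0.88, 0.53 and 0.13, a difference of -1.03 (SE 0.26). The call was lost without 35S:WIN1 replicates 1 and 2, where the difference was -1.16. PER3 (AT1G05260, also RCI3, a cold-induced gene) and PER39 (AT4G11290) act in the same seal. PER3 was at 0.65, 0.57, 1.75 and 0.63 against 1.40, 1.57, 1.29 and 0.93, a difference of -0.40 (SE 0.28) that was not called, but was called lower without 35S:WIN1 replicate 3, at -0.68. PER39 was at 1.27, 0.77, 2.54 and 2.45 against 1.75, 1.97, 1.43 and 1.34, and its control arrays lay between the lower and the higher pair of 35S:WIN1 arrays. Without the dim pair, replicates 1 and 2, PER39 was called higher at 0.87. PER9 and PER64, which are known from the Casparian strip too but are not among the 60, had differences of -1.16 (called lower) and -0.39 (not called). CASP1, a scaffold protein gene of the strip, was lower with a log2 difference of -1.05 (SE 0.32, limma adjusted p = 0.0333), and its groups overlapped. MYB36, which regulates the strip, was called the other way, at 0.85 (SE 0.26, limma adjusted p = 0.0345). Both are from the list of root markers and were named after their values were seen.

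The uncalled lignin genes included 2 with small differences. PER17 (AT2G22420), known from lignifying tissues, was at 0.82, 0.73, 0.87 and 0.42 against 0.72, 0.58, 0.66 and 0.72. PER66 (AT5G51890), known from xylem vessel cells, was at -0.38, -0.49, -0.56 and -0.57 against -1.53, -1.38, -0.66 and 0.14, with more spread in the control than in 35S:WIN1. Neither was called, with differences of 0.04 (SE 0.12) and 0.35 (SE 0.34). PER66 was called higher without control replicate 4, at 0.69. PER2 (AT1G05250), linked to lignin in stems, was at 0.56, 2.31, 2.28 and 1.36 against 0.89, 1.26, 0.89 and 0.38, a difference of 0.77 (SE 0.40) that was not called. In all, of 9 lignin and root barrier genes 2 were called higher and 1 lower, a share of 33.3% near the 35.3% of all genes.

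Of 7 root hair genes, 5 were lowest on replicate 1 among the 35S:WIN1 arrays. PER62 above, the one called, was not among them, with replicate 3 lowest and replicate 4 highest. PER1 (AT1G05240), PER44 (AT4G26010) and PER73 (AT5G67400, also RHS19) act together in root hair growth. PER1 was at 2.23, 4.10, 4.18 and 3.17 in 35S:WIN1 against 2.52, 2.83, 2.57 and 2.08 in the control, with the highest 35S:WIN1 arrays well above all control arrays. PER73 was at -2.02, -0.64, -0.05 and -1.07 against -1.72, -1.67, -1.96 and -2.27. PER44 was at -0.88, 1.25, 1.35 and 0.22 against 0.28, 0.85, 0.39 and 0.40. In these 3 genes 35S:WIN1 replicate 1 was the lowest of its group, and PER1 and PER73 were above all control arrays on the other 35S:WIN1 arrays. PER60 (AT5G22410, also RHS18), a gene of root hair cells, followed with -3.29, -0.36, -1.10 and -1.42 against -2.21, -2.89, -3.00 and -2.53. PER7 (AT1G30870), also expressed in root hairs, was at -0.02, 0.83, 1.49 and 0.50 against 0.05, 0.12, -0.09 and 0.26. PER69 (AT5G64100), of root hair growth in the cold, was lowest on replicate 4, at 3.48, 3.82, 3.33 and 2.90 against 3.04, 3.47, 3.16 and 2.52.

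With all arrays the differences of PER1, PER73, PER60 and PER7 were 0.92, 0.96, 1.11 and 0.61 (SE 0.42, 0.38, 0.56 and 0.29), and none was called. Without 35S:WIN1 replicate 1 they were 1.32, 1.32, 1.69 and 0.85, and all 4 were called higher, though with all arrays each lay below 0 on the spike-in scale. PER44 was not called with all arrays, at 0.0037, or without replicate 1, at 0.46. PER2 and PER35 (AT3G49960) were also called higher without that array, at 1.13 and 1.07. Replicate 1 was the lowest 35S:WIN1 array for 5 of the 7 root hair peroxidases, against 23.7% of all genes tested. The same array was the lowest for 9 of 12 root hair marker genes outside the family, whose median against the control mean was -0.41, 1.14, 0.93 and 0.36 on 35S:WIN1 replicates 1 to 4. All 12 markers were tested and 3 were called higher, or 25.0% against 15.1% of all genes, each turning below 0 on the spike-in scale. The 3 calls became 0 with a replicate block or on the deposited values, 1 without the filter on dim probes, and 1 to 5 with 1 array left out. They were RSL4 and RHD6, regulators of root hair growth, at 1.05 and 1.09, and EXPA7, an expansin gene of root hairs, at 0.97. Their summed linear level, relative to the 75th percentile, was 2.29 to 5.93 in 35S:WIN1 and 2.37 to 2.91 in the control, and the part of root hair number in these peroxidase levels was not tested.

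**Figure D3:**
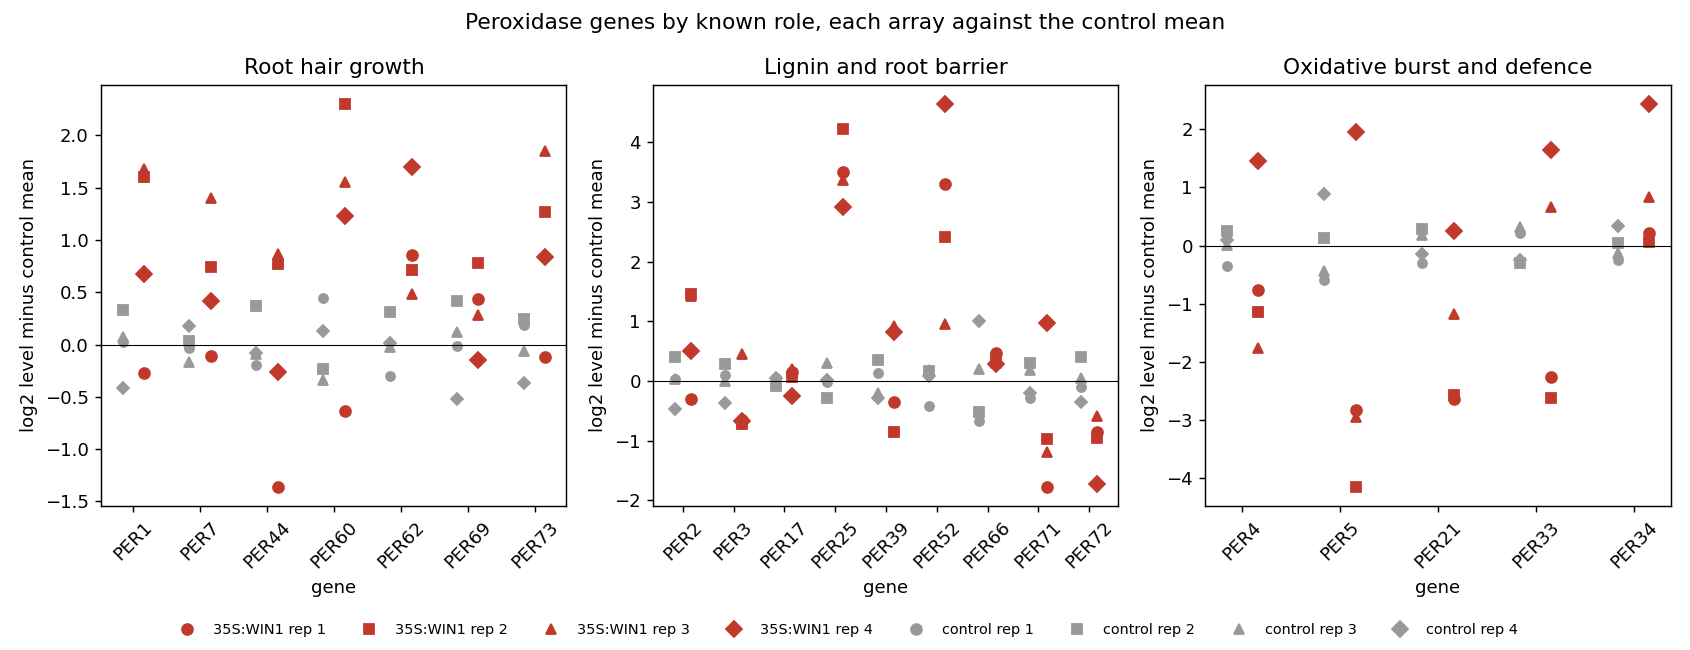
Level on each array minus the control mean of the gene (log2) for root hair, lignin and root barrier, and oxidative burst and defence genes, with control in grey and 35S:WIN1 in red and a symbol for each replicate. 35S:WIN1 replicate 1 (circles) is the lowest red symbol for 5 of 7 root hair genes, and replicate 4 (diamonds) the highest for 5 of 5 burst and defence genes.

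Genes of the oxidative burst and of defence varied most among the 35S:WIN1 arrays, and 0 of 5 were called. PER33 (AT3G49110) and PER34 (AT3G49120) are the peroxidases best known for the apoplastic burst of reactive oxygen. PER33 was at -2.21, -2.57, 0.72 and 1.71 in 35S:WIN1 against 0.28, -0.24, 0.38 and -0.18 in the control. PER34 was at 1.53, 1.37, 2.15 and 3.75 against 1.06, 1.36, 1.19 and 1.65. The control arrays of PER33 lay together between the 2 low and the 2 high arrays of 35S:WIN1, and those of PER34 overlapped with its lower pair.

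PER4 (AT1G14540) and PER5 (AT1G14550) are neighbours known to respond to bacterial flagellin. PER4 was at -4.34, -4.72, -5.33 and -2.11 against -3.93, -3.32, -3.57 and -3.48. PER5, above background on a single 35S:WIN1 array, was at -7.36, -8.69, -7.48 and -2.58 against -5.12, -4.40, -4.96 and -3.65. In both genes 35S:WIN1 replicate 4 was above all control arrays and the other 35S:WIN1 arrays were below all of them. PER21 (AT2G37130), linked to defence, was at 0.68, 0.75, 2.14 and 3.56 against 3.01, 3.59, 3.50 and 3.17. PER71 (AT5G64120), linked to lignin and to wall defence, had 35S:WIN1 replicate 4 above all control arrays and the others below them, at -0.38, 0.43, 0.20 and 2.37 against 1.11, 1.70, 1.58 and 1.19.

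Replicate 4 was the highest 35S:WIN1 array for 5 of these 5 burst and defence genes, against 32.7% of all genes tested, and for 12 of the 56 family genes. The differences over all arrays were -0.55 for PER4, -1.99 for PER5, -1.54 for PER21, -0.74 for PER71, -0.65 for PER33 and 0.88 for PER34 (SE 0.48 to 1.19). With normexp the difference of PER5 was 0.05. Without 35S:WIN1 replicate 4, PER4, PER21 and PER71 were called lower, at -1.22, -2.13 and -1.31. PER5 was called lower too, but no 35S:WIN1 array with PER5 above background was then left, so no size is given. PER68 (AT5G58400) was called lower too, at -1.07, while PER30 (AT3G21770) and PER32 (AT3G32980) were called higher, at 0.94 and 0.77. Without replicates 1 and 2 together, PER34 was called higher at 1.63. Which of these genes were called, and in which direction, thus depended on the 35S:WIN1 arrays used.

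The family was more variable between arrays of one group than genes in general, in both groups. The median SD over the 4 arrays was 0.56 in 35S:WIN1 and 0.31 in the control for the 56 genes, against 0.24 and 0.19 for all genes tested. Among genes well above background on all 8 arrays the medians were 0.55 and 0.30 for 50 family genes and 0.23 and 0.18 for 18764 genes. The SD in 35S:WIN1 was above 1 for 13 family genes, where 4.65% of all genes passed that value, and in the control for 2 family genes, where 1.81% did. It was larger in 35S:WIN1 than in the control for 42 of the 56 genes, against 62.7% of all genes. These values compare arrays within a group and do not use the difference between the groups, but the genes share the arrays.

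**Figure D4:**
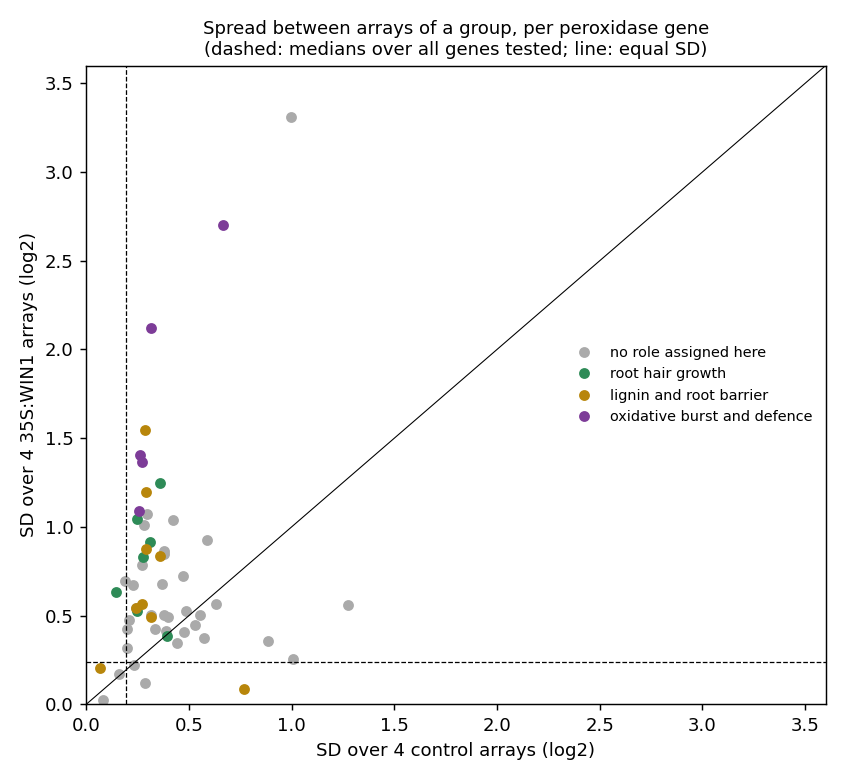
SD over the 4 control arrays (horizontal axis) and over the 4 35S:WIN1 arrays (vertical axis), log2, for each tested peroxidase gene, coloured by role, with dashed lines at the medians of all genes, 0.19 and 0.24. Most points lie above both dashed lines and 42 of 56 lie above the line of equal SD, with PER28 and PER5 at the top.

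PER28 (AT3G03670) had the widest spread of all, at -4.33, -8.87, -1.36 and -7.24 in 35S:WIN1 and -6.82, -6.45, -6.12 and -8.37 in the control. It was above background on 3 arrays of either group and was not called. At the other end stood PER42 (AT4G21960, also PRXR1). Array values of these 2 genes are given because of their spread, a choice made after it was seen. PER42 was at 6.10, 6.11, 6.15 and 6.10 in 35S:WIN1 against 6.27, 6.08, 6.20 and 6.18 in the control, a difference of -0.07 (SE 0.09). PER12 (AT1G71695) had a difference of 0.0013 with a larger SE of 0.16.

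Control arrays differed in the family as well. Control replicate 2 was the highest control array for 31 of the 55 family genes with 4 control values, or 56.4%, against 20.9% of all genes tested. Control replicate 1 was the lowest for 27 of these 55, or 49.1%, against 27.0%. Beside this, the summed linear level of the 11 root marker genes was 42.7 on control replicate 1 and 66.1 on replicate 2, the lowest and the highest of the control arrays. PYK10, a root beta-glucosidase gene with the brightest probe of the list, made up 59.4% to 81.8% of that sum over the 8 arrays, and without it the sum was 13.8 and 23.3 on these arrays and 23.8 on control replicate 4. The 10 shoot marker genes, of photosynthesis, summed to 551 on control replicate 1, the highest, and 450 to 480 on the other control arrays. The part of root share in the levels of the family was not tested.

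Between the groups the root markers summed to 61.2 to 97.3 in 35S:WIN1 and 42.7 to 66.1 in the control, and without PYK10 to 13.6 to 18.1 and 13.8 to 23.8. Of the 11, 3 were called higher and 2 lower, or 45.5% against 35.3% of all genes. The 3 higher calls became 0 on the deposited values or without 35S:WIN1 replicates 1 and 2, and 1 to 4 with 1 array left out. PLT2, a regulator of root stem cells, and PYK10 were higher by 1.34 and 0.79, which turn below 0 on the spike-in scale. NRT2:1, which encodes a nitrate transporter, was lower at -4.68, with 2 of its 35S:WIN1 arrays above background. Shoot markers summed to 340 to 450.2 in 35S:WIN1 and 450.4 to 551 in the control. Of the 10, 6 were called lower, or 60%, against 20.2% of all genes. The count was 3 to 6 with 1 array left out and 4 on the deposited values. Among these 6 were GAPB, CA1 and GPRI1 at -1.01, -2.07 and -1.36. The other 4 were not called, at 0.39, -0.69, 0.22 and 0.15. No marker of either list was below background on all arrays. Their part in the calls of peroxidase genes was not tested.

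Neighbouring copies were compared side by side. In the order of a reference annotation, 12 pairs of family genes lay next to each other with no protein-coding gene between them, and both genes were tested in 10. In 1 pair, PER37 and PER38, both genes were called in the same direction, in 2 pairs 1 gene was called, and in 7 neither was. PER50 was called higher at 1.94 (SE 0.25) while its neighbour PER51 was not, at 0.45 (SE 0.25). PER51 stood at 0.89, 0.28, 0.76 and 1.27 in 35S:WIN1 against -0.05, 0.86, 0.18 and 0.42, so its groups overlapped. PER53 (AT5G06720, also PA2), next to PER54, was at -0.89, -1.42, -2.50 and -1.77 against -2.18, -2.18, -2.66 and -1.76 and was not called. The difference between 2 neighbours was not tested.

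In the other 2 pairs 1 gene was below the limit for testing. PER59, among the largest rises, lies next to PER58, which was near background in both groups. PER15, called lower, lies next to PER14, which was below background on all arrays. PER70 (AT5G64110), between PER69 and PER71, was at 0.98, 0.51, 0.98 and 1.08 against -0.83, -0.77, 1.28 and 0.36 and was called higher without control replicate 3, at 1.30. Near-identical copies such as PER1 and PER2 may share signal on one probe, and probe sequences were not used here.

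**Figure D5:**
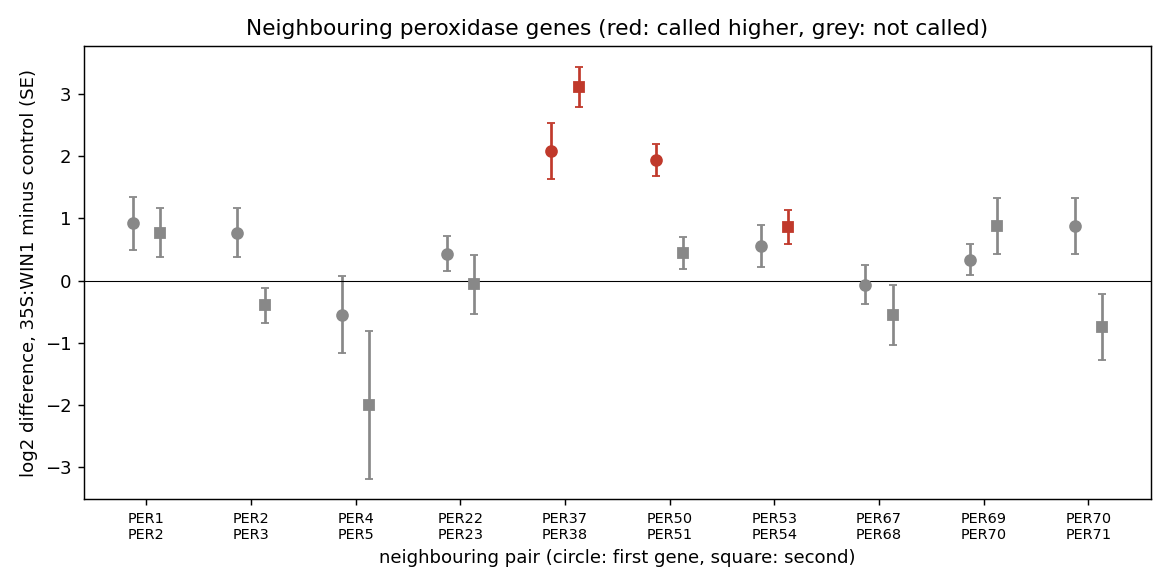
Log2 difference with SE for both genes of the 10 neighbouring pairs with both genes tested, first gene as a circle and second as a square, red where called higher. Only PER37 and PER38 are both called, and PER50 and PER54 are each called beside an uncalled neighbour.

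The uncalled genes with no role assigned here had differences from -0.56 (PER68) to 1.49 (PER28). PER45 (AT4G30170) had no value on control replicate 1, where its spot was marked as an outlier, so its difference of -0.49 rests on 3 control arrays. It was called lower without 35S:WIN1 replicate 3, at -0.67. PER63 (AT5G40150) was called lower without control replicate 2, at -0.52, against -0.40 with all arrays. PER57 (AT5G17820), which like PER39 is known as a target of the root growth regulator UPB1, was not called, at 0.36 (SE 0.24). Of the 13 family loci outside the list 10 were tested, with 1 called higher and 4 lower, or 50% against 35.3% of all genes.

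Other genes of the same wall chemistry were described from lists. Over all genes tested the shares called were 15.1% higher and 20.2% lower, or 35.3% in all. The RBOH oxidases supply the superoxide from which the hydrogen peroxide comes. Of 8 tested 3 were called higher and 1 lower, or 50%, with a median log2 difference of 0.62. The counts were 1 and 1 on the deposited values and 0 and 3 on the spike-in scale. RBOHB rose by 2.57 (SE 0.26) and AT1G64060, which encodes RBOHF, by 0.93 (SE 0.14), with limma adjusted p of 3.69e-04 and 0.00198, and AT4G25090 was lower at -1.78. Of 14 extensin genes tested, whose proteins peroxidases cross-link, 7 were called higher and 0 lower, or 50%, with a median of 0.97. These counts became 1 and 0 on the deposited values and 0 and 4 on the spike-in scale. EXT3, EXT6 and AT4G08400 rose by 1.54, 1.03 and 1.05, all below 0 on the spike-in scale. EXT6 and AT4G08400 had nearly the same level on every array, such as -0.69 and -0.71 on 35S:WIN1 replicate 1. Other called genes of the list followed them closely. Whether such genes share signal was not tested, and their calls may not be separate. The summed level of the list was 38.6 to 80.8 in 35S:WIN1 against 16.6 to 21.1 in the control. On control replicate 2 the sum of 17.6 leaves out EXT4, which had no value there. EXT3 and EXT4, which was not called, had the brightest probes of the list and made up most of the sum. EXT4 is named here after its values were seen.

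Laccases are copper enzymes that polymerise lignin without hydrogen peroxide. Of 15 tested 2 were called higher and 6 lower, or 53.3% against 35.3% of all genes, with a median of -0.29. The counts became 1 and 6 on the deposited values and 0 and 13 on the spike-in scale. LAC5 and LAC3 had differences of -2.32 and -1.83, and LAC16, with 2 of its 35S:WIN1 arrays above background, of -2.36. Of 16 genes of monolignol synthesis, which supply lignin units, 2 were called higher and 2 lower, with a median of -0.04. The share called was 25.0%, against 35.3% of all genes. On the deposited values the counts were 0 and 1, and on the spike-in scale 0 and 15. CAD5 and ATCAD4, both encoding cinnamyl alcohol dehydrogenases, differed in direction at 0.97 and -1.03, and PAL1, the entry enzyme gene, fell by 0.51.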

How the data were processed

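Total RNA from 8 samples (4 of 35S:WIN1, 4 of vector control, grouped by title) was labelled with Cy3, and the submitters' processing notes name Agilent Feature Extraction 9.1.3.1 as the scanner software. The processed signal used is a background-subtracted linear intensity per the file headers, not scaled between arrays. The deposited table holds the same intensity divided by a constant per slide.

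From these, log2 values were set relative to each array's 75th percentile. Outlier spots were dropped, and a gene was its brightest probe, kept if 4 or more of the 8 arrays had it well above background. No probe of the family was saturated. The groups were compared with limma 3.58.1 in R 4.3.3, two-sided, with Benjamini-Hochberg adjustment over all genes, and the fit was tested on simulated data. Gene names and the order of neighbours came from the RefSeq annotation. The 60 genes and all gene lists were chosen with earlier results of these data known. Every family gene may be named, with array values for the 10 largest rises and falls, role groups and neighbours, and up to 3 genes of each other list by smallest p. Alternatives were quantile and median normalization, normexp background correction (on the median spot signal, in place of the planned mean signal), the deposited values, other probe filters, a replicate block, leaving out arrays and a spike-in scale. The number of arrays limits the precision. Sequences were not used here.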

Additional observations from a re-analysis of the deposited data

Results flagged for a closer look

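In 111 sets of 4 arrays, each a gene of the family in one group, 10 had a highest or lowest array far from the other arrays of its group by Dixon's criterion, which chance gives in about 5% of sets. In 35S:WIN1, PER3 and PER27 stood high on replicate 3, at 1.75 and -1.10, and PER42 stood at 6.15 there, within a narrow range. On 35S:WIN1 replicate 4, PER30 was low at 0.18 and PER68 high at -4.13. In the control, PER24 was low at -3.51 and PER54 high at -3.05 on replicate 4, PER30 and PER37 were high on replicate 2 at 0.68 and -0.98, and PER52 was low at -5.91 on replicate 1. All 10 spots were well above background.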

How the results depend on the processing

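Leaving out 1 array gave 8 to 14 family genes called higher and 10 to 15 called lower, and a replicate block gave 9 and 10, losing PER54. Deviations of same-numbered samples from their group means correlated at -0.04 to 0.14, so the numbers were not taken to pair them. Of the 20 called genes, 12 kept their call in every alternative that tested them, and 14 did apart from the spike-in scale. PER24 and PER65 were not tested where a gene had to be well above background on all 8 arrays. That filter gave 10 higher and 8 lower calls. The deposited values gave 7 higher and 10 lower, with PER47, PER54 and PER62 lost and the median of all genes moved by -0.40. The spike-in scale, chosen after seeing the data, moves genes with a value on all 8 arrays by -1.64. PER45, with a missing control value, moved from -0.49 to -2.32. On that scale 5 family genes were called higher and 34 lower, and 26 turned from above to below 0. Of these, 12 were called on neither scale, and the other 14, called on at least one, were PER12 (-1.63), PER16 (-1.57), PER17 (-1.59), PER22 (-1.20), PER31 (-1.57), PER39 (-1.5), PER44 (-1.63), PER47 (-0.057), PER51 (-1.19), PER54 (-0.77), PER57 (-1.27), PER62 (-0.70), PER66 (-1.28) and PER69 (-1.30). The cause of the shift was not tested. Planned descriptions of promoter and protein sequences were not run. PER65 rests on signals near background in 35S:WIN1. Over all genes, 3078 higher and 4138 lower calls became 905 and 2088 on the deposited values, 402 and 17160 on the spike-in scale, and 1951 and 2367 without 35S:WIN1 replicates 1 and 2, which left 13 and 9 family genes called.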
